A study of Mus musculus with 33 samples.

Results

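Adult mouse kidney was compared with adult mouse lung for the ribose methylation of ribosomal RNA (rRNA), using 3 RiboMeth-seq libraries of each organ out of 33 libraries in the study. The libraries were chosen by their labelled tissue and stage, and all 108 sites that the authors listed as methylated were read in each of the 6. The study followed rRNA ribose methylation through mouse development in 11 groups of tissue and stage, with biological triplicates per the series' design text. RNA was taken from whole tissue, so every value is an average over the cell types of an organ. Both adult groups were untreated as far as the labels say, and they state neither strain, sex, genotype nor exact age. Kidney and lung of embryonic day E16.5, with 3 libraries each, served as the same pair of organs before birth, and adult brain, heart and liver, with 9 libraries in all, as the other adult tissues. Read ends on rRNA carry no marker genes of a tissue, so the identity of each organ rests on its label. The deposited adult kidney columns carried the sample names of adult lung in their header, as did the columns of the other groups. The group was therefore taken from the sheet, and the mean of the 3 kidney columns matched the authors' listed kidney mean at 104 of 108 sites and that of the lung columns the listed lung mean at 103. No sheet matched the listed mean of another group at more than 2 sites.

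A methyl group on the 2' oxygen of a ribose is placed on rRNA by fibrillarin, which is guided to each nucleotide by a box C/D small nucleolar RNA (snoRNA, named SNORD) that pairs with the rRNA around it. Many of these snoRNAs are cut from introns of host genes such as Gas5, Snhg1, Snhg5 and Rpl13a. The methyl groups gather in functional regions of the ribosome, and some sites carry them on only a fraction of ribosomes. RiboMeth-seq reads them because alkali cuts poorly next to a methylated ribose, so that few read ends fall on the site. The score used throughout is 1 minus the read ends at the site over the weighted mean of its 6 neighbours on each side, the flanking mean. It runs from 0 for no methylation to 1 for full methylation. Site names give the subunit rRNA, the methylated nucleotide and its position in human numbering, and mouse positions are given where a site is described. Pairings of site and snoRNA are background knowledge and were not measured.

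The rRNA around the sites that carried the largest differences is shown to place each methylated nucleotide among the neighbours that enter its score. The sequences run 5′ to 3′ and come from the deposited tables, with methylated nucleotides that the authors listed in capitals.
LSU-Cm2848, mouse 28S positions 2609 to 2629: gucggcaagcCggauccguaa
LSU-Gm2863, mouse 28S positions 2624 to 2644: ccguaacuucGggauaaggau
SSU-Um172, mouse 18S positions 162 to 182: cuagAgcuaaUaCaugccgac
LSU-Cm1868, mouse 28S positions 1674 to 1694: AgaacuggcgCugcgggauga
LSU-Gm4607, mouse 28S positions 4280 to 4300: uuugguguauGugcuuggcug
SSU-Gm436, mouse 18S positions 428 to 448: auUccggagaGggagccugag
No other listed nucleotide lay within the 6-nucleotide window of LSU-Cm2848, whereas SSU-Um172 had 2 listed neighbours inside its window, SSU-Am166 and SSU-Cm174.

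The kidney libraries held 10811179, 9003215 and 14083771 read ends, and the lung libraries 4588737, 2715841 and 35156406. Lung thus had both the shallowest and the deepest of the 6 libraries. The lowest flanking mean of any listed site was 100.8 read ends, in the second lung library. One site, LSU-Cm3848, was left out because its flanking mean was under 10 in a library of the fit, and 107 sites were tested. Libraries of the same number deviated together in the 2 organs, and this bears on every comparison below. Over the 107 sites, the deviations of the first kidney library from the kidney mean correlated with those of the first lung library from the lung mean at r = 0.845. The corresponding r was 0.892 for the second libraries and 0.784 for the third. Libraries with different numbers gave r between -0.681 and 0.0195. Deviations from a mean of 3 libraries sum to 0 at each site, which pulls these values below 0, so they are no separate evidence of pairing. Wide deviations weigh most in r, such as -0.515 and -0.438 at LSU-Um3904 in the second kidney and lung libraries. These correlations run across sites, which are not independent replicates. Kidney and lung libraries of one number therefore shared part of their deviation, whose source was not tested. A fit of all 33 libraries with the library number as a block was also run. Its values are given where the block changed a call between adult kidney and adult lung. That block gives each number a single shift common to all groups, whereas pairing was read only between kidney and lung. Numbers need not match across other groups. At LSU-Um3904 the authors' correction for barcode effects, as rebuilt here, fell on libraries 2 and 3 in adult kidney and 1 and 3 in adult brain.

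**Figure D1:**
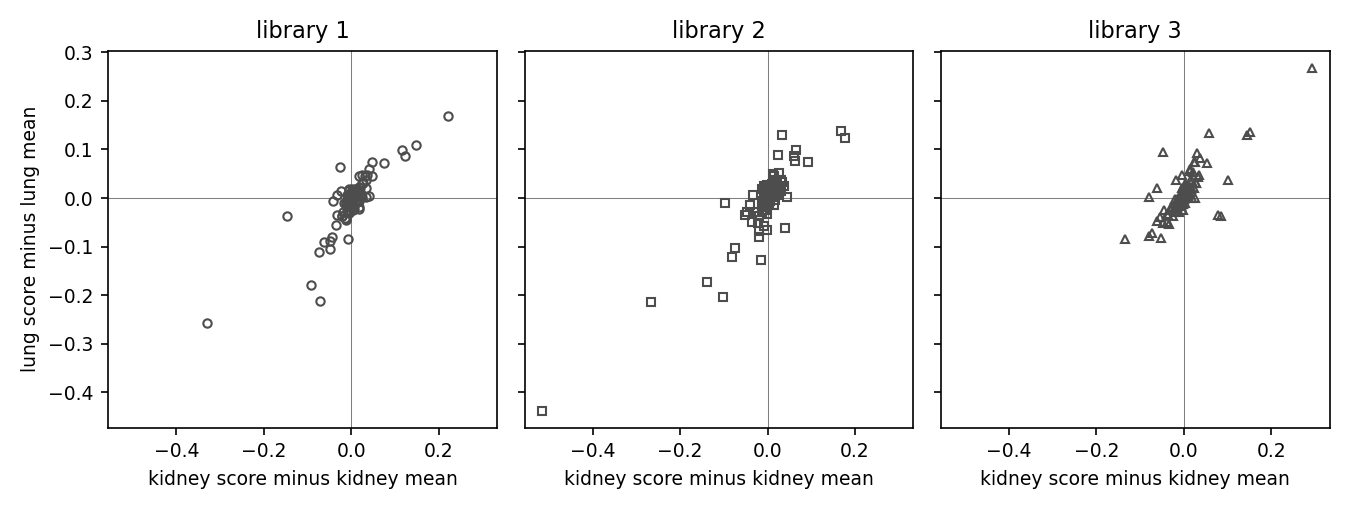
Each point is 1 of 107 sites, with the kidney library's score minus the kidney mean on the horizontal axis and the same-numbered lung library's score minus the lung mean on the vertical axis, both in score units (fraction methylated), for libraries 1, 2 and 3. The points run from lower left to upper right in each panel, with r of 0.845, 0.892 and 0.784.

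Between adult kidney and adult lung, 1 of 107 tested sites was called (0.935%, limma with all 33 libraries and Benjamini-Hochberg adjustment). This was LSU-Cm2848, which was less methylated in kidney. That fit does not pair libraries by number, and a site without a call is not shown to be alike in the organs. At an unadjusted p under 0.05 there were 8 sites, or 7.48%. The scores of the organs did not overlap at 19 sites, or 17.8%. Kidney was the higher organ at 15 of these, or 14% of the sites tested, and the lower at 4, or 3.74%. With the library number as a block common to all groups, a second site was called, SSU-Um172, which was more methylated in kidney (2 sites, 1.87%). With that block in the 6 libraries alone, a fit chosen after seeing the data, 21 of 108 sites were called (19.4%). That fit had 2 residual degrees of freedom and did not use the scatter of each site itself.

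**Figure D2:**
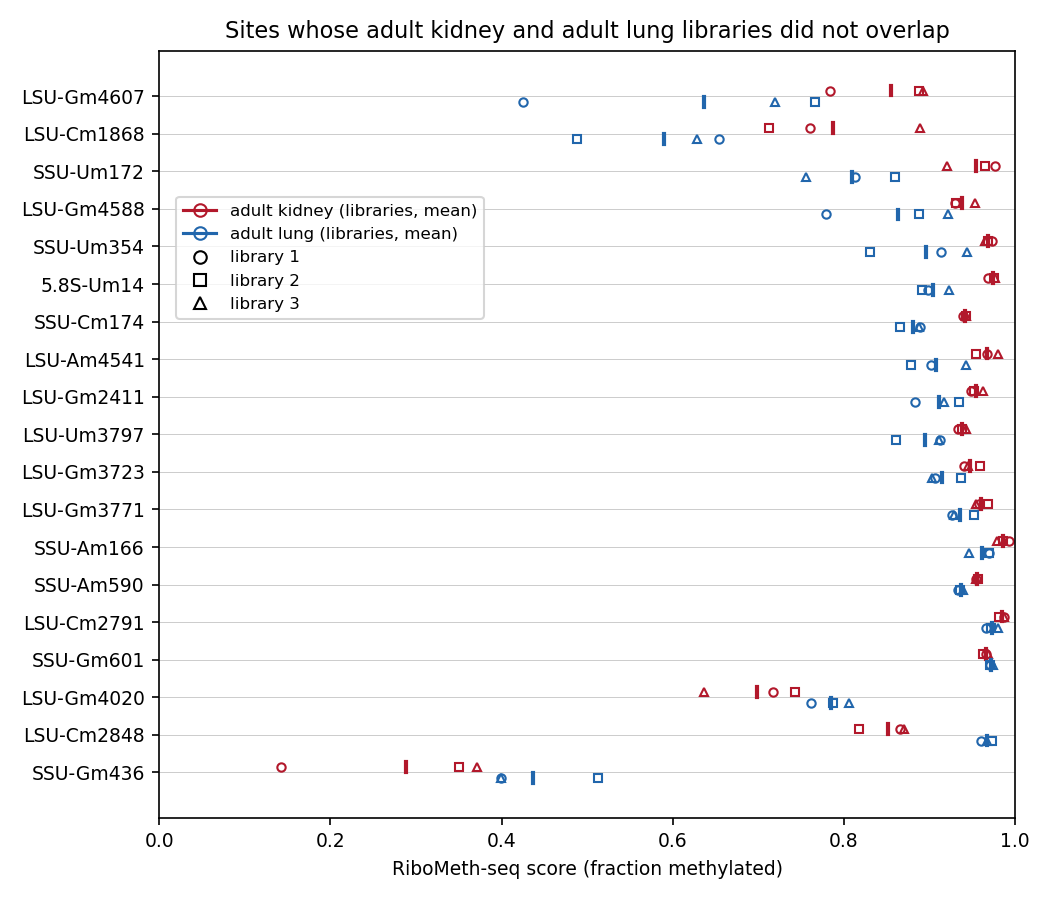
Scores (fraction methylated, horizontal axis) of the 3 adult kidney and 3 adult lung libraries at the 19 sites where the organs did not overlap, with symbols for the library number and bars for the means. Kidney lay to the right at 15 sites and to the left at 4, among them LSU-Cm2848, whose 3 lung libraries lay between 0.961 and 0.973.

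LSU-Cm2848 is cytidine 2619 of mouse 28S rRNA and is assigned to SNORD50A, a snoRNA from an intron of Snhg5. Its score was 0.866, 0.818 and 0.870 in the kidney libraries. In the lung libraries it was 0.961, 0.973 and 0.968. Every kidney library lay below every lung library, and the 3 lung values lay close together near full methylation. The means were 0.851 ± 0.0292 in kidney and 0.967 ± 0.00621 in lung (SD, n = 3 each), a difference of -0.116 (SE 0.0138, 95% confidence interval -0.144 to -0.0874, limma adjusted p = 1.11e-06). Kidney was lower in each same-numbered pair, by differences of -0.0946, -0.156 and -0.0974.

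The read ends behind LSU-Cm2848 lay at the site itself. In kidney, 376, 430 and 326 read ends fell on the site against flanking means of 2814, 2360 and 2511. In lung, 29, 17 and 215 read ends fell there against flanking means of 744, 640 and 6626. The site thus held few read ends in lung even in the deepest of the 6 libraries. Counting error alone gave the second kidney library a 95% Poisson interval of 0.7998 to 0.835 and the second lung library, with the fewest read ends, 0.957 to 0.985. Read counts are not independent molecules, so such intervals cover counting error only. Relative to the flanks, read ends at the site were 4.54-fold more frequent in kidney (edgeR's quasi-likelihood test, adjusted p = 1.06e-05). The gap was present in 5' read ends (difference -0.115, limma adjusted p = 6.77e-06). From 3' read ends alone the difference was -0.143 and was not called (limma adjusted p = 1), and the 3' score of the first kidney library was lower than that of the other 2. The call also needed the spread of all 33 libraries: with the 6 libraries alone and no block, the adjusted p was 0.101.

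**Figure D3:**
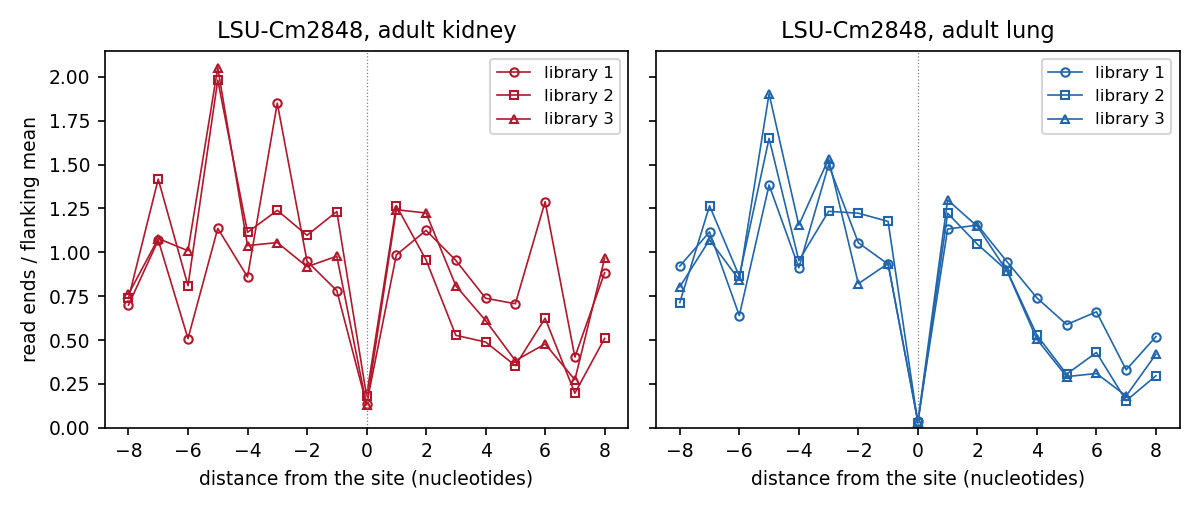
Read ends divided by the flanking mean of LSU-Cm2848 (vertical axis) by distance from the site in nucleotides (horizontal axis), for each adult kidney library on the left and each adult lung library on the right. At distance 0 the kidney libraries stood at 0.134, 0.182 and 0.1298 of the flanking mean and the lung libraries at 0.0390, 0.0265 and 0.0324.

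LSU-Gm2863, guanosine 2634 of mouse 28S rRNA, lies 15 nucleotides downstream and is assigned to SNORD50B, the other snoRNA of Snhg5. Its score was 0.927, 0.925 and 0.882 in kidney and 0.947, 0.964 and 0.918 in lung. The organs overlapped here, although kidney was lower in each same-numbered pair. The difference was -0.0314 (SE 0.0400, limma adjusted p = 0.998). LSU-Um2824, within 30 nucleotides upstream of LSU-Cm2848 and assigned to SNORD34, had means of 0.962 ± 0.0193 in kidney and 0.952 ± 0.0266 in lung (SD, n = 3 each), and the organs overlapped.

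Across the 11 groups of the study, adult kidney had the lowest mean score at LSU-Cm2848 and adult lung the highest. The highest adult kidney library, at 0.870, lay below the lowest library of the next group, E16.5 liver, at 0.888. From there the means rose through E9.5 head at 0.926, E16.5 kidney at 0.927, E16.5 lung at 0.936 and E16.5 heart at 0.941. Adult brain, heart and liver followed at 0.950, 0.952 and 0.954, and E16.5 brain at 0.961. Neighbours in this order from E16.5 liver to adult lung overlapped in their libraries, so that adult kidney was the group set apart. Adult kidney lay 0.101 below the mean of adult brain, heart and liver (difference -0.101, limma adjusted p = 3.46e-07), and adult lung differed from them by 0.0152 (limma adjusted p = 0.451). The sites that the authors corrected for barcode effects in adult brain and liver, and the 17 they corrected in adult heart, differed from those in kidney and lung. Tissue and set of libraries therefore cannot be told apart in these 2 contrasts.

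**Figure D4:**
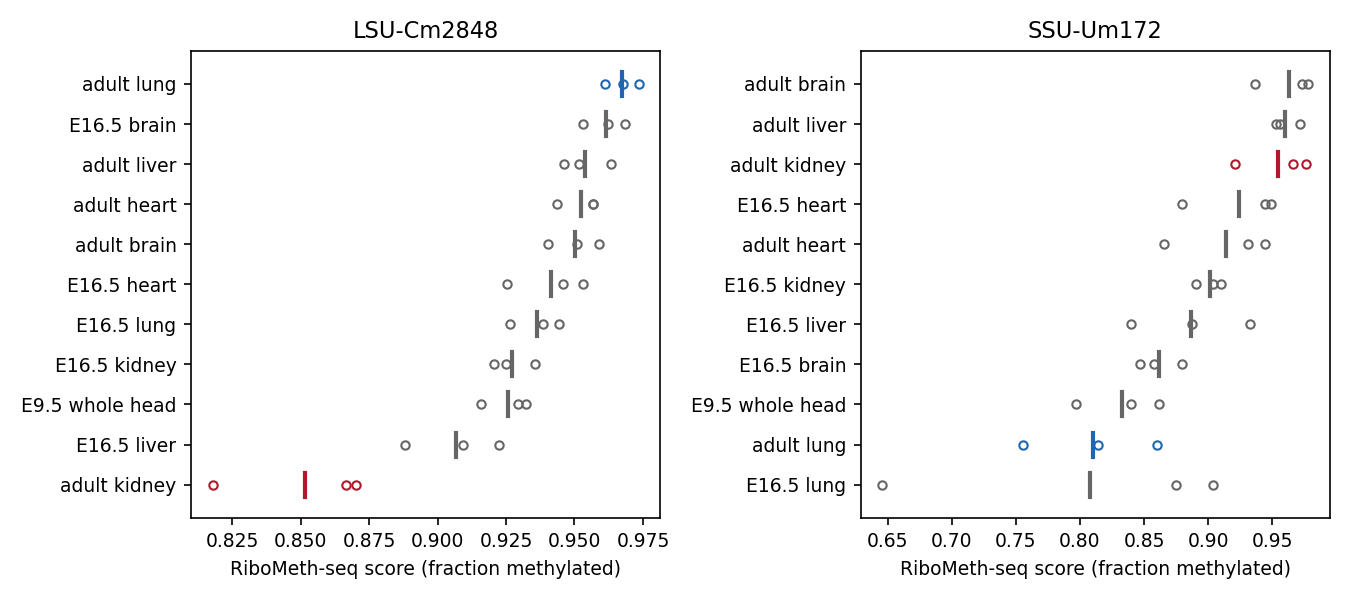
Scores (fraction methylated, horizontal axes, which do not start at 0) of LSU-Cm2848 on the left and SSU-Um172 on the right in all 11 groups, with circles for the 3 libraries, bars for the mean and groups ordered by mean. Adult kidney, in red, was lowest at LSU-Cm2848 with a mean of 0.851, and adult lung, in blue, was next to lowest at SSU-Um172 with a mean of 0.810.

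The kidney and lung difference at LSU-Cm2848 was called in the adult and not at E16.5, and the change between the stages was tested itself. In E16.5 kidney the mean was 0.927 ± 0.00771 and in E16.5 lung 0.936 ± 0.00916 (SD, n = 3 each). Their difference was -0.00925 (limma adjusted p = 0.764). The adult difference minus that at E16.5 was -0.107 (SE 0.0196, limma adjusted p = 0.00127), the only site of 107 called in this test (0.935%). That call was lost with the library medians set equal (adjusted p = 0.0551), with 3' ends alone (adjusted p = 0.621) and in a fit of the compared groups only (adjusted p = 0.598, and 0.867 with the library number as a block there). The authors corrected more sites for barcode effects in E16.5 kidney and lung, such as LSU-Am1313, than in the adult pair. A library-set effect shared equally by both organs of a stage would cancel in this contrast. Any other effect of the set cannot be told apart from stage. At E16.5 itself no site was called between kidney and lung by limma (0%) or by edgeR, with 9 sites at an unadjusted p under 0.05 (8.41%). The third E16.5 lung library held only 463388 read ends and the second E16.5 kidney library 1492884, fewer than any adult kidney or lung library. The lack of calls therefore does not show that the organs were alike before birth. Kidney was also higher than lung without overlap at 9 sites before birth (8.41%), and lower without overlap at none.

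**Figure D5:**
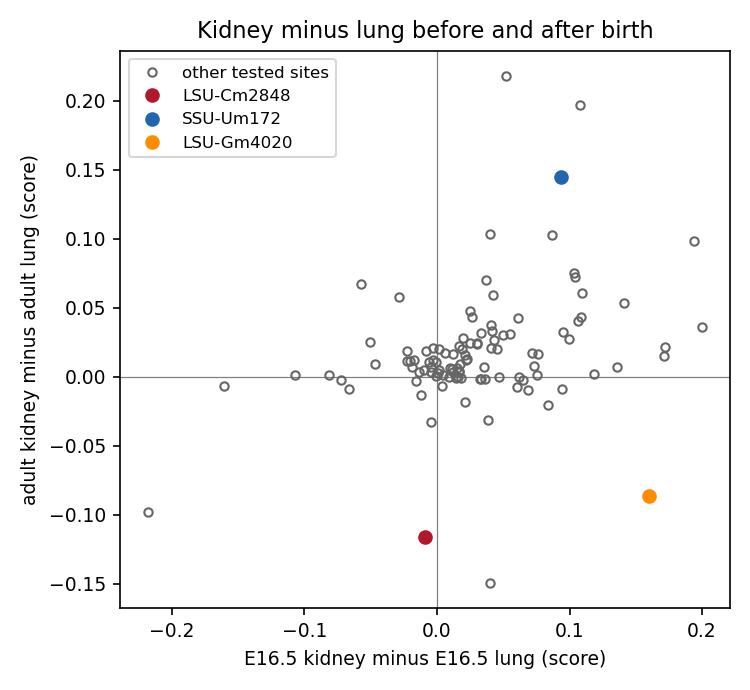
Kidney minus lung difference in score at each of 107 sites, at E16.5 on the horizontal axis and in the adult on the vertical axis. LSU-Cm2848 lies near 0 at E16.5 (-0.00925) and at -0.116 in the adult, and LSU-Gm4020 lies at 0.160 and -0.0866.

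SSU-Um172 is uridine 172 of mouse 18S rRNA and is assigned to SNORD45A and SNORD45B. Its score was 0.977, 0.966 and 0.921 in kidney and 0.814, 0.860 and 0.756 in lung. Every kidney library lay above every lung library, and the third library was the lowest in both organs. The difference was 0.144 (SE 0.0435, limma adjusted p = 0.149), and with the library number as a block the adjusted p was 0.0389. In edgeR's quasi-likelihood test of the read ends the adjusted p was 0.0124. The gap was wider in 5' read ends, at 0.182, than in 3' read ends, at 0.0419. Adult lung differed by -0.136 from adult brain, heart and liver (limma adjusted p = 0.0286) and adult kidney by 0.00888 (limma adjusted p = 0.983). The lung call was lost without any one of the 3 lung libraries (adjusted p = 0.0904, 0.0640 and 0.191), without the first brain library (0.0531) and without the second heart library (0.0577). E16.5 lung had a mean of 0.808 ± 0.141 (SD, n = 3), close to that of adult lung, but its lowest library, at 0.646, also made it the group with the wide spread.

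Both listed neighbours of SSU-Um172 were also higher in kidney in every library. SSU-Am166, assigned to SNORD44 of Gas5, had means of 0.986 ± 0.00745 in kidney and 0.962 ± 0.0139 in lung (SD, n = 3 each). SSU-Cm174, assigned to SNORD45C, had means of 0.942 ± 0.00221 in kidney and 0.881 ± 0.0130 in lung (SD, n = 3 each). Neither passed the test (limma adjusted p = 0.998 for each). That test takes the spread of a site from all 11 groups. At SSU-Cm174 its SE was 0.0733, and E16.5 lung (SD 0.266) and adult heart (SD 0.132) scattered most. The lack of a call therefore does not show that kidney and lung were alike at this site. The windows of these 3 sites share nucleotides, so their scores are not independent, and with listed neighbours left out of the window the difference at SSU-Um172 was 0.124.

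The widest differences in mean score lay at 3 sites whose mean score over the 6 libraries was between 0.25 and 0.75, where libraries also scattered. LSU-Gm4607, guanosine 4290 of mouse 28S rRNA and assigned to SNORD121, scored 0.784, 0.888 and 0.893 in kidney and 0.425, 0.767 and 0.720 in lung. The organs did not overlap, and the first library was the lowest in both. The difference was 0.218 (SE 0.0746, limma adjusted p = 0.204, and 0.0749 with the library number as a block). The authors corrected the lung mean of this site for a barcode effect, from 0.637 to 0.6998, and that value could not be rebuilt from the libraries.

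LSU-Cm1868, cytidine 1684 of mouse 28S rRNA and assigned to SNORD48, scored 0.760, 0.713 and 0.889 in kidney and 0.654, 0.488 and 0.628 in lung. Kidney was higher in every library, and the second library was the lowest in both organs. Its difference of 0.197 (SE 0.113) was not called from both read ends (limma adjusted p = 0.998). From 5' read ends alone, the difference was 0.191 and was called (limma adjusted p = 4.34e-05). From 3' read ends it was 0.193 and was not called.

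SSU-Gm436, guanosine 438 of mouse 18S rRNA and assigned to SNORD100, was the site with the widest difference toward lung. It scored 0.142, 0.350 and 0.372 in kidney and 0.399, 0.513 and 0.3995 in lung. The organs did not overlap, but the third kidney library and the first lung library lay close together. The difference was -0.149 (SE 0.103, limma adjusted p = 0.998). Kidney lay below adult brain, heart and liver at this site (difference -0.304, limma adjusted p = 0.0467), a call lost in 9 of the 12 fits that left out 1 library.

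LSU-Gm4020, guanosine 3695 of mouse 28S rRNA, and SSU-Gm601, guanosine 603 of mouse 18S rRNA, completed the 4 sites that were lower in kidney without overlap. LSU-Gm4020 scored 0.717, 0.743 and 0.636 in kidney and 0.762, 0.788 and 0.806 in lung, a difference of -0.0866 (limma adjusted p = 0.998). Its 5' ends gave -0.131 and its 3' ends 0.0760, so the direction depended on which ends were read. At E16.5 the difference was 0.160, and the adult minus E16.5 contrast of -0.247 was not called (limma adjusted p = 0.227). SSU-Gm601 differed by -0.00647, between means of 0.966 and 0.972.

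LSU-Gm4593, guanosine 4276 of mouse 28S rRNA and assigned to SNORD78 of Gas5, had the lowest mean score of the tested sites in these organs. Kidney scored 0.235, 0.120 and 0.296 and lung 0.160, 0.104 and 0.0785. The organs overlapped, and the difference of 0.103 was not called (limma adjusted p = 0.584). Kidney lay above adult brain, heart and liver by 0.195 (limma adjusted p = 0.00108), and lung by 0.0919 (limma adjusted p = 0.201). Every adult brain and adult liver library scored 0 here, where the score is floored, so these groups showed no spread. The highest adult heart library scored 0.0996. The kidney difference fell to 0.101 with 5' ends alone (adjusted p = 0.448) and to 0.156 without the third kidney library (adjusted p = 0.0555), and the call was also lost with 3' ends alone (adjusted p = 0.123). With LSU-Cm2848 and SSU-Gm436 it made up the 3 sites called between kidney and the other adult tissues (2.8%), against 7 at an unadjusted p under 0.05 (6.54%).

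Adult lung lay below the other adult tissues at 4 called sites (3.74%; 21 sites, or 19.6%, at an unadjusted p under 0.05), which were SSU-Um172, SSU-Am159, LSU-Um3797 and LSU-Um4468. SSU-Am159 and LSU-Um4468 are named because they were called here, after their values were seen. At LSU-Um4468 the lung difference was -0.0747 (limma adjusted p = 0.00230) and that of kidney -0.0374 (limma adjusted p = 0.277). None of the 4 was called with library medians set equal or with 3' ends alone. SSU-Am159 scored 0.965, 0.974 and 0.989 in kidney and 0.883, 0.918 and 0.984 in lung. Its kidney minus lung difference was -1.93e-05 from 5' ends and 0.0693 from 3' ends, and the third lung library lay within the range of kidney. Its lung difference from the other adult tissues was -0.0492 and fell to -0.000951 with 5' ends alone and to -0.0266 without the first lung library (adjusted p = 0.652). The lung call at SSU-Am159 was lost in 7 of the 12 fits that left out 1 library. At LSU-Um3797 and LSU-Um4468 the lung call was lost without the second lung library (adjusted p = 0.149 and 0.0640).

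The remaining sites where kidney was higher without overlap were mostly near full methylation in kidney. SSU-Um354, assigned to SNORD90, had means of 0.969 in kidney and 0.896 in lung and was called by edgeR (adjusted p = 0.00112) but not by limma. LSU-Am4541, at 0.968 and 0.908, and 5.8S-Um14, assigned to SNORD71, at 0.974 and 0.904, were likewise called by edgeR only (adjusted p = 0.00465 and 0.0157). With SSU-Um172 and LSU-Cm2848 these made up the 5 sites called by edgeR (4.67%). LSU-Gm4588, LSU-Gm2411, LSU-Um3797, LSU-Gm3723, LSU-Gm3771, SSU-Am590 and LSU-Cm2791 differed by between 0.0120 and 0.0749 and were called by neither tool. At SSU-Am590 the SD was 0.00143 in kidney and 0.00258 in lung, whereas the limma SE, from all 11 groups, was 0.0332.

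The direction of small differences was counted as scored and with library medians set equal. The median score over the 107 sites was 0.951, 0.954 and 0.950 in the kidney libraries and 0.928, 0.936 and 0.938 in the lung libraries. Kidney medians all lay above lung medians, by 0.0175 between the means of 0.952 ± 0.00181 and 0.934 ± 0.00517 (SD, n = 3 each; exact two-sided permutation p = 0.1, the smallest that 3 against 3 can give). Kidney had the higher mean at 81 sites and the lower at 26, but with library medians set equal the counts were 42 and 65. The median difference over all 107 sites was 0.0111, and -0.00643 with medians set equal. Setting medians equal lowers the difference at every site by the same 0.0175, which exceeds 0.0111. Most sites must then come out lower in kidney, so the counts at equal medians, here and below, follow from that shift. Whether a level of the whole library gave the direction was not tested. In same-numbered pairs, kidney was higher in all 3 at 52 sites (48.6%) and lower in all 3 at 8 (7.48%).

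Methylated uridines stood on one side of this comparison as scored. All 20 tested uridine sites had the higher mean in kidney, with a median difference of 0.0257 beside 0.0111 over all sites. The organs did not overlap at 4 of the 20, beside 17.8% of all tested sites. With medians set equal, 14 of the 20 were higher and 6 lower. Adenosine sites had the higher kidney mean at 25 of 33, cytidine sites at 15 of 22 and guanosine sites at 21 of 32, with median differences of 0.00440, 0.00790 and 0.0120. With medians set equal, these counts were 7 of 33, 7 of 22 and 14 of 32. By molecule, kidney was higher at 33 of 40 sites of 18S rRNA (median 0.0167), at 46 of 65 of 28S rRNA (median 0.00745) and at both sites of 5.8S rRNA. With medians set equal, it was higher at 19 of 40, 22 of 65 and 1 of 2.

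By score, 83 of the 107 sites had a mean of 0.9 or more over the 6 libraries, with a median difference of 0.0111, and 1 of them was called. Another 14 sites lay from 0.75 to 0.9 (median difference 0.0414), 9 from 0.25 to 0.75 (median -0.00929) and 1 below 0.25. Sites with another listed nucleotide inside the window and sites without one had median differences of 0.0121 over 38 sites and 0.0108 over 69.

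The sites were also grouped by the host gene of their guide. Of 10 sites assigned to snoRNAs of Gas5, 8 had the higher kidney mean and 2 the lower (median difference 0.00787), and none was called. Of 7 sites of Snhg1, 5 were higher and 2 lower (median 0.00155), and of 5 of Rpl13a, 4 were higher and 1 lower (median 0.0108), with no call in either. Over all sites, kidney was higher at 81 of 107 and 1 was called (0.935%). With medians set equal, kidney was higher at 4 and lower at 6 sites of Gas5, at 2 and 5 of Snhg1 and at 2 and 3 of Rpl13a. Both sites of Snhg5, LSU-Cm2848 and LSU-Gm2863, were lower in kidney, with 1 called. This list holds the called site itself, and the organs overlapped at LSU-Gm2863, so it is no separate evidence on the host gene.

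Some sites scattered between libraries far more than between organs. LSU-Um3904 scored 0.879, 0.142 and 0.950 in kidney and 0.812, 0.204 and 0.910 in lung. The second library was far below the other 2 in both organs. LSU-Gm4340 had its low value in the first library of each organ, at 0.433 in kidney and 0.517 in lung, and LSU-Cm4506 in the second, at 0.553 and 0.615. SSU-Cm462, assigned to SNORD14, also ranged widely, over 0.803, 0.553 and 0.607 in kidney and 0.863, 0.549 and 0.847 in lung. The authors corrected the means of LSU-Um3904, LSU-Gm4340, LSU-Cm4506 and SSU-Gm683 for barcode effects in both organs and that of LSU-Gm4607 in lung. At these 5 sites the median SD was 0.232 in kidney and 0.188 in lung, against 0.0145 and 0.0246 at the other 102. These SDs are of the uncorrected scores, from the same libraries that the authors corrected, so they are no separate evidence of a barcode effect. Over all tested sites the median SD was 0.0164 in kidney and 0.0255 in lung, and that of the 3 same-numbered differences was 0.0163.

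Among sites of intermediate score or of wide span over the 11 groups, the organs overlapped at SSU-Am576, SSU-Gm683, SSU-Gm867, SSU-Cm1272, SSU-Um1442, SSU-Gm1447, LSU-Am3804, LSU-Gm3923, LSU-Um4276 and LSU-Am4560. SSU-Gm867, assigned to SNORD98, spanned 0.755 between the lowest and highest of the 11 group means. Here it was 0.845 ± 0.0217 in kidney and 0.787 ± 0.0609 in lung (SD, n = 3 each). LSU-Gm3923, assigned to SNORD111, had the widest difference of these 10 sites, at 0.0982 (limma adjusted p = 0.998).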

How the data were processed

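RiboMeth-seq read ends on mouse rRNA were analysed in 33 libraries, with adult kidney and adult lung as the main comparison. The authors deposited counts of 5' and 3' read ends and their sum for 6878 nucleotides, per the file headers. They also deposited a fraction methylated per library, and per the file headers a table of other values, the group means at 108 sites after barcode correction. Per the submitters' processing notes, Bowtie2 2.3.4.1 and cutadapt 2.0 were used; the rRNA reference and the settings are not given in those notes. Scores computed here from the read-end counts matched the deposited fraction within 5e-10. The weights of the 6 neighbours on each side fell from 1 to 0.5.

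Uncorrected scores were tested with limma 3.58.1 (R 4.3.3), with 1 mean per group, a variance trend and Benjamini-Hochberg adjustment over 107 sites, called under 0.05. Sites needed a flanking mean of 10 in every library. edgeR 4.0.16 tested the summed read-end counts with the log flanking mean as offset. The same 11 groups gave the contrasts with E16.5 and with the other adult tissues. Each pair of the 6 libraries differed by more than counting noise (chi-square per degree of freedom of at least 47.0). This checks only for 1 library deposited under 2 names and cannot tell repeat preparations from separate animals.

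Library numbers pair kidney with lung: same-numbered libraries correlated at 0.845, 0.892 and 0.784 in the adult and at 0.693, 0.650 and 0.683 at E16.5. The labels give the numbers, and the pairing itself comes from the data. The alternatives used single read ends, rebuilt barcode correction, thinning to 2715841 read ends, an unfloored score, another window, equal medians, flanking means of 50 or none, other variance models, a block and left-out libraries. The limma test of adult kidney against adult lung was also run on simulated scores with the site means and spreads of these data. It recovered 41.5% of sites lowered by 0.1 in kidney and 77.5% of those lowered by 0.2. Many sites were lowered together in each draw, and recovery after Benjamini-Hochberg adjustment depends on how many sites shift. These rates therefore do not give the power for a single shifted site. The simulated scores were normal, unbounded and had the same spread in every group at a site. The simulated libraries shared no deviation by number.

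Sites were named if called, if among the widest non-overlapping differences (up to 20), if the mean score lay from 0.25 to 0.75 or the group means spanned at least 0.3, if within 30 nucleotides of a called site or sharing its guide number, or if among the 5 widest ranges. Guide assignments were written from background knowledge, since the tables used here pair no guide with a site. The members and lists were chosen with earlier results of these data known.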

Additional observations from a re-analysis of the deposited data

Results flagged for a closer look

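LSU-Cm2848 stood out because its kidney minus lung difference itself differed between the adult and E16.5, by -0.1066 in score (limma interaction test, adjusted p = 0.00127). The adult difference was -0.116, with kidney lower in 3 of 3 same-numbered pairs, and the E16.5 difference was -0.00925. The cause was not tested, and the stages also differed in the sites that the authors corrected for barcode effects.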

How the results depend on the processing

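The call of LSU-Cm2848 between adult kidney and lung was lost with 3' ends alone (0 sites called) and with the compared groups only (0), and kept in every other setting run. The count of called sites was 3 with 5' ends alone (SSU-Am166 and LSU-Cm1868 added), 5 with edgeR and 2 with the replicate block. With the replicate block in the 6 libraries alone, an alternative chosen after seeing the data, it was 21 of 108 (20 higher in kidney, 19.4%). That fit had 2 residual degrees of freedom and took each site's spread from the trend alone, so it does not use the site's own scatter. Leaving out 1 library gave 1 to 2 calls, with SSU-Am159 added without the third lung library (adjusted p = 0.000704, against 0.204 with it). For the adult minus E16.5 contrast, the count was 2 with 5' ends alone and 2 with no variance trend, and 0 with 3' ends alone, equal library medians, the compared groups only and the block in those groups, and 1 in each fit without 1 library. At E16.5 every setting gave 0. Kidney against the other adult tissues gave 0 with 3' ends alone, 18 with edgeR, 11 with the compared groups only, 9 with the block added to those, and 1 to 3 without 1 library (1 without the third kidney library). Lung against them gave 8 with 5' ends alone, 0 with 3' ends alone, 0 with equal medians, 38 with edgeR, 16 with the compared groups only, 22 with the block added, and 0 to 4 without 1 library: 0 without the second lung library, and 2 without the first lung, first brain or second heart library. At LSU-Um3797 the lung difference turned to 8.0e-05 with 5' ends alone. The difference of median scores was 0.0101 with 5' ends alone. The replicate block changed no other call between adult kidney and lung, and against the other adult tissues it added SSU-Gm509 for kidney (difference -0.130, adjusted p = 0.0474), and SSU-Um1326 and SSU-Gm1328 for lung (-0.0819 and -0.0627, adjusted p = 0.0139 and 0.0320). The causes of these changes were not tested. Among the 6 adult kidney and lung libraries, depth limits the shallow second lung library most, where 17 read ends stood behind LSU-Cm2848. The third E16.5 lung library was shallower still, with 463388 read ends.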
